A study of Mus musculus with 4 samples.

Results

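The cells described here are the cells of 2 mouse dorsal root ganglion (DRG) libraries that were chosen by fibroblast markers. A cell barcode was taken when 200 or more genes were detected in it and no more than 20% of its UMIs were mitochondrial (UMIs are unique molecular identifiers, the counted molecules). It also had to hold UMIs of at least 4 of the 8 genes Col1a1, Col1a2, Col3a1, Dcn, Lum, Pdgfra, Igfbp6 and Pcolce. Barcodes with any UMI of Cdh5, Scn10a or Prx, which mark endothelial cells, nociceptors and myelinating Schwann cells, were left out, as were barcodes with 4 or more of 8 cartilage genes. The rule found 189 cells, 116 in the vehicle library and 73 in the 1NMPP1 library, of 6287 DRG barcodes and 27654 barcodes in the series. Because measured counts chose these cells, the 8 genes and every gene used to cluster the cells are given as a description.

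The series asks how somatosensory nerves act in the response to an injury of the growth plate, and holds 1 vehicle and 1 1NMPP1 library of each of 2 tissues, growth plate and DRG. All mice carried a change in a receptor kinase of sensory neurons that lets the small molecule 1NMPP1 block it, so the vehicle controls carried it too. The 1NMPP1 mice were injected with 17 µg per g body weight of a 5 mM solution, 48 h and 2 h before surgery, and their drinking water afterwards contained it at 40 µM, while control mice were injected with DMSO alone. Ganglia L1 to L5 were taken 7 days after the injury and digested with papain, collagenase and dispase. The labels name neither the age nor the number of the animals in a library, so each DRG group is 1 library and no test between the groups was possible.

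Fibroblasts of a ganglion lie in its capsule, around its vessels and between its axons, and the capsule is continuous with the membranes that wrap the spinal cord and its roots. They make the collagens, proteoglycans and elastic fibres of these sheaths, and they secrete growth factors and chemokines that reach neurons, glia and immune cells. Papain and collagenase free them from that matrix together with glia, vessel cells and blood cells.

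The name fibroblast rests on the markers that chose the cells, so those markers are no support for it. Markers of other cell types went against the name for some of the chosen cells. Clustering the 189 cells alone gave 5 clusters, of which 2 were led by fibroblast genes and held 67 of the 116 vehicle cells and 64 of the 73 1NMPP1 cells. Another cluster was led by Apoe, Fabp7 and Dbi, genes of satellite glia, the cells that wrap neuron bodies, and held 27 vehicle and 7 1NMPP1 cells. A median of 8 of 8 satellite glia markers was detected in its cells of either library, and its summed fibroblast markers reached 510 and 626 CPM (UMIs of a gene per 1000000 UMIs of the same cells) against 36953 and 48918 CPM in the cluster led by Apod and Dcn. One vehicle cell of the Apod and Dcn cluster had 154084 UMIs, 25.7% of the UMIs of that cluster in vehicle, 4 fibroblast markers and most of its sensory neuron marker UMIs. Without that cell, a setting chosen after seeing the data, the summed fibroblast markers of the cluster were 49746 CPM in vehicle. It is not among the cells with at least 6 markers. One cluster, of 14 vehicle and 2 1NMPP1 cells, was led by Ank3, Cadm2 and Csmd1 and also held glial markers. The last cluster was led by Col1a1, Bglap and Col11a2, the last pair being genes of bone-forming cells and cartilage, and held 8 vehicle cells and no 1NMPP1 cell, which allows a share of up to 4.93% of the 73 cells (exact Clopper-Pearson bound).

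**Figure D1:**
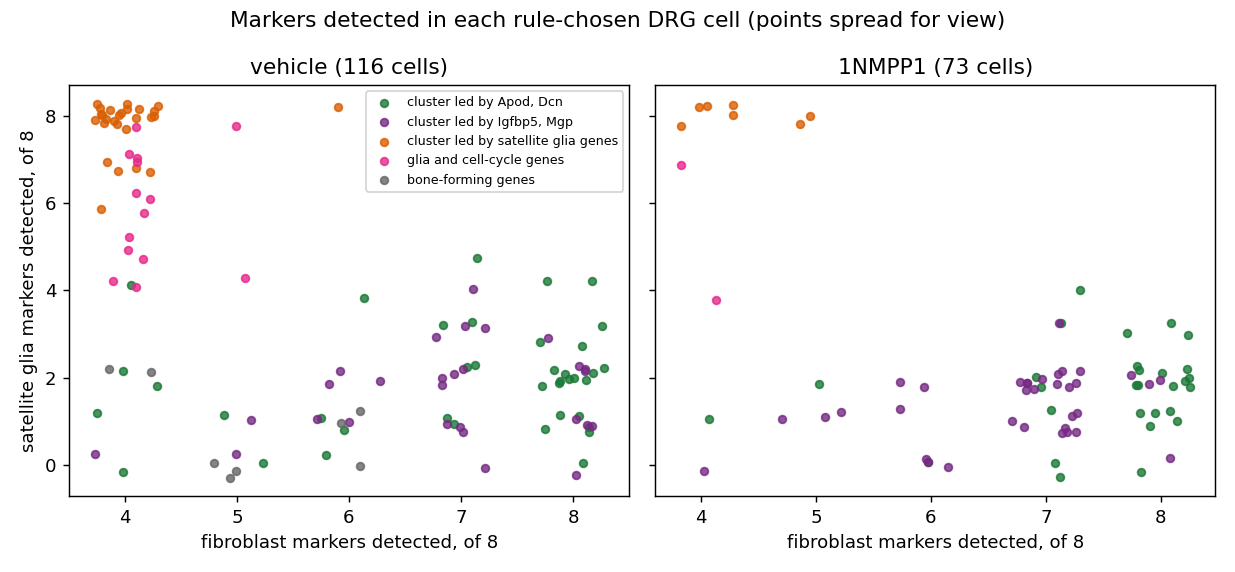
Each point is 1 of the 189 chosen cells, with the number of fibroblast markers detected on the x axis and the number of satellite glia markers on the y axis (both of 8), vehicle left and 1NMPP1 right, coloured by cluster. Cells at exactly 4 fibroblast markers, 46 in vehicle and 9 in 1NMPP1, include most cells with 4 or more glial markers, while most cells at 6 to 8 have 3 or fewer.

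The minimum of 4 markers fell among glial cells. At exactly 4 markers there were 46 vehicle and 9 1NMPP1 cells, with median depths of 21316 and 16436 UMIs. Pdgfra was detected in 4.35% of those vehicle cells and in no such 1NMPP1 cell, and Dcn in 30.4% and 22.2%. Just outside the rule, at 3 markers, lay 132 vehicle and 31 1NMPP1 barcodes in which a median of 87.5% of the satellite glia markers was detected. At 8 markers stood 29 vehicle and 23 1NMPP1 cells with a median of 25% of those glial markers in either library. The results below are therefore given for all chosen cells and for the cells with at least 6 markers, 61 in vehicle and 58 in 1NMPP1, which are called strict cells here.

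Among strict cells, glial markers were rarer than among all chosen cells. At least 4 of the 8 satellite glia markers were detected in 6 of 61 vehicle and 1 of 58 1NMPP1 strict cells, against 47 of 116 and 10 of 73 of all chosen cells. The 8 glial markers summed to 1351 CPM (vehicle) and 546 CPM (1NMPP1), with Kcnj10 and Sox10 at 0 in 1NMPP1. Endothelial markers summed to 58.3 and 16.4 CPM, pericyte and smooth muscle markers to 214 and 290 CPM with Rgs5 at 0 in both, and macrophage markers to 18.6 and 14.7 CPM. Erythroid markers, mostly hemoglobin, summed to 342 CPM (vehicle) and 6811 CPM (1NMPP1). At least 4 of 8 neutrophil markers were detected in 9 of 61 vehicle and 0 of 58 1NMPP1 strict cells, and at least 4 of 7 markers of non-myelinating Schwann cells in 11 of 61 and 3 of 58. At least 3 of 6 bone-forming markers were detected in 2 of 61 vehicle and 0 of 58 1NMPP1 strict cells. The part of these other cell types in the results below was not tested.

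The rule also left out many barcodes that carried the full fibroblast set. Of 115 vehicle and 114 1NMPP1 barcodes with at least 6 markers and few cartilage genes, 54 and 56 held a UMI of Cdh5, Scn10a or Prx. Cdh5, with or without the other genes, was present in 40 and 46 of them, in 23 and 25 of them as a single UMI. These barcodes from the same libraries were not used by the rule, and their values are given beside those of the strict cells, a comparison chosen after seeing the data. The DRG libraries shared 4 barcode sequences, and no chosen cell's barcode was found in another of the 4 libraries.

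Chosen cells made up 3.95% (95% interval 3.27% to 4.72%) of 2938 kept vehicle barcodes and 3.32% (2.61% to 4.15%) of 2201 kept 1NMPP1 barcodes. The log2 ratio of these shares was -0.25 (-0.69 to 0.18), so no difference was detectable at this number of cells. The strict cells pointed the other way, with 2.08% against 2.64% and a log2 ratio of 0.34 (-0.20 to 0.89). Without the other barcodes classed as blood cells, strict cells were 3.44% of 1775 vehicle barcodes and 6.30% of 921 1NMPP1 barcodes. The log2 ratio was then 0.87 (0.33 to 1.42). Chosen cells were never given a class, so this filter lowered only the denominators. At least 3 of 6 erythroid markers were nonetheless detected in 21 of 61 vehicle and 16 of 58 1NMPP1 strict cells. Intervals on shares, CPM and ratios cover counting error only and say nothing of the spread between animals. A share of barcodes also depends on how many of the other cells each digest released, which was not tested.

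The strict cells divided mainly into the 2 clusters led by fibroblast genes. The cluster led by Apod and Dcn held 39 vehicle and 29 1NMPP1 chosen cells, 32 and 27 of them strict. Its next leading genes were Lum, Gpc3, Tgfbi and Ccl11. Apod, a lipocalin that carries small lipids and is abundant in nerve fibroblasts, stood at 24916 CPM in the vehicle and 24869 CPM in the 1NMPP1 cells of this cluster, and at 33549 CPM in vehicle without the cell of 154084 UMIs. In the cells with at least 6 markers it stood at 18652 and 11422 CPM, a log2 ratio of -0.71 (-0.75 to -0.67). In the cluster led by Igfbp5 and Mgp it stood at 694 and 1340 CPM. Ccl11, the eosinophil-attracting chemokine eotaxin, stood at 1168 and 2550 CPM in the first cluster and at 164 and 38.5 CPM in the second. Without the cell of 154084 UMIs, Ccl11 stood at 1573 CPM in vehicle in the first cluster. Tenm2, a teneurin that binds latrophilins across cell contacts, was detected in 29 of 39 and 26 of 29 cells of the Apod and Dcn cluster and in 2 of 28 and 0 of 35 cells of the other.

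The second cluster held 28 vehicle and 35 1NMPP1 chosen cells, 25 and 31 of them strict. Igfbp5, which binds insulin-like growth factors, stood there at 9508 and 10816 CPM, against 170 and 850 CPM in the Apod and Dcn cluster. In vehicle that last cluster held it at 229 CPM without the cell of 154084 UMIs. Sfrp4, a secreted Wnt antagonist, was detected in 25 of 28 and 33 of 35 cells, against 3 of 39 and 3 of 29. Igf2 was detected in 19 of 28 and 24 of 35 cells of this cluster and in 1 of 39 and 2 of 29 of the other. Pi16, a marker of adventitial fibroblasts, had UMIs in 12 of 28 and 17 of 35 cells. Its near absence from the Apod and Dcn cluster, at 2 of 39 and 3 of 29 cells, went with that of Slc47a1, at 1 of 39 and 0 of 29. Osr2, a transcription factor listed for endoneurial fibroblasts, had the opposite pattern, with 21 of 39 and 18 of 29 cells in the Apod and Dcn cluster and 0 of 28 and 2 of 35 in the second.

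**Figure D2:**
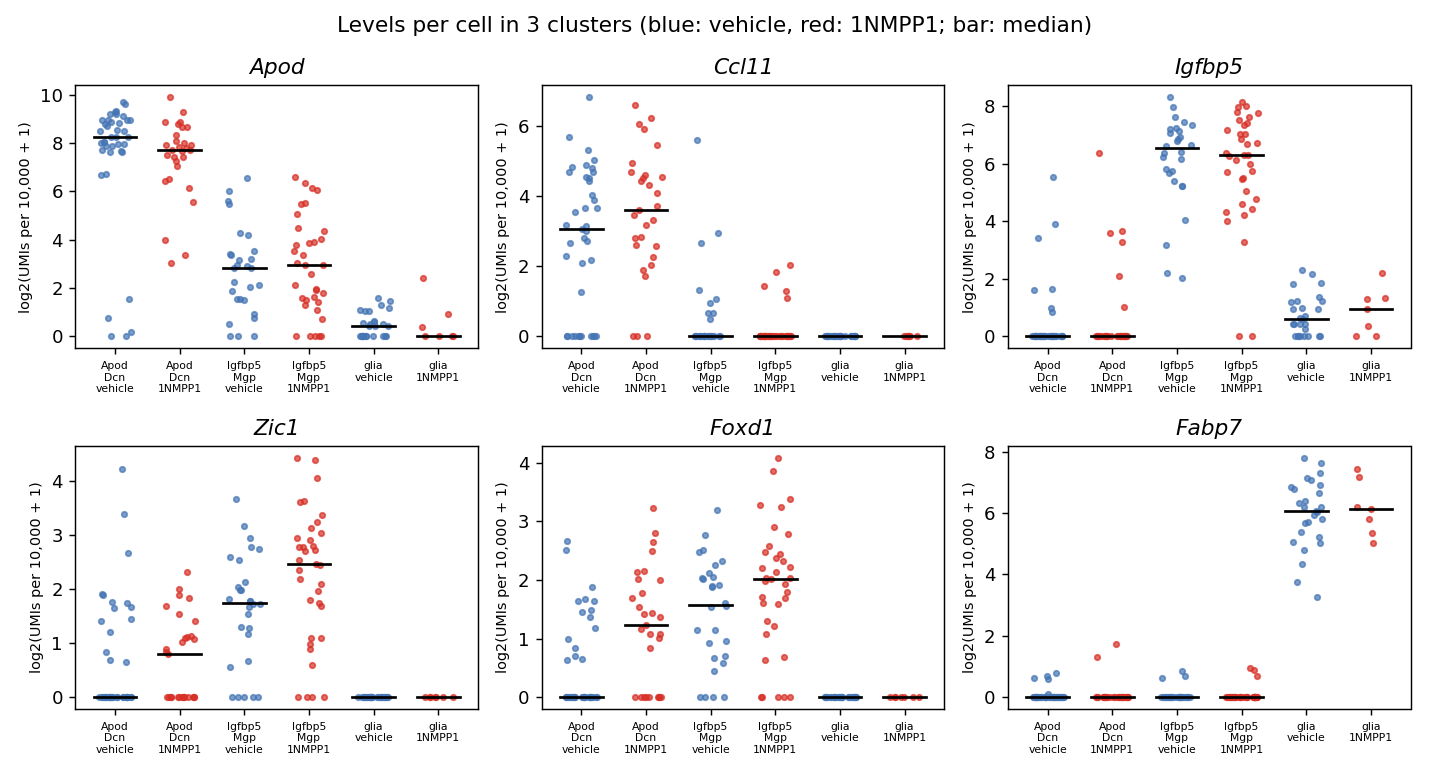
Points are single cells of 3 clusters, vehicle in blue and 1NMPP1 in red, with log2 of UMIs per 10,000 UMIs plus 1 on the y axis and the median as a bar. Apod and Ccl11 are high in the Apod and Dcn cluster, Igfbp5 in the Igfbp5 and Mgp cluster, and the glial gene Fabp7 in the cluster led by satellite glia genes, where Zic1 and Foxd1 are at 0 in each cell; these genes took part in the clustering.

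Meningeal transcription factors, which the rule did not use, were detected in many of the cells. At least 5 of 9 meningeal fibroblast markers were detected in 17 of 28 vehicle and 21 of 35 1NMPP1 cells of the Igfbp5 and Mgp cluster, against 2 of 39 and 1 of 29 cells of the Apod and Dcn cluster. Zic1, a zinc finger factor of dorsal mesenchyme and of the meninges, had UMIs in 32 of 61 vehicle strict cells and in 45 of 58 1NMPP1 strict cells, at 157 CPM (131 to 187) and 326 CPM (282 to 375). Foxd1, a forkhead factor of stromal cells, had UMIs in 38 of 61 and 49 of 58 strict cells, at 149 and 295 CPM. Foxc1, whose loss disturbs the meninges, had UMIs in 32 of 61 and 39 of 58. Foxc1 was not particular to the chosen cells. It stood at 99.2 CPM (vehicle) and 161 CPM (1NMPP1) in strict cells, and at 103 and 253 CPM in pericyte and smooth muscle barcodes. Endothelial barcodes held it at 42.7 and 79.3 CPM, while satellite glia barcodes held it at 0.33 and 3.35 CPM and erythroid barcodes at 6.43 and 16.3 CPM. Slc47a1, a transporter of organic cations, and Crabp2, which binds retinoic acid, were detected mostly in the Igfbp5 and Mgp cluster, Crabp2 at 17 of 28 and 19 of 35 cells there and at 1 of 39 and 0 of 29 in the other.

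Zic1 was not particular to the chosen cells, since the pericyte and smooth muscle barcodes held it at 244 CPM (vehicle) and 392 CPM (1NMPP1). In the satellite glia barcodes it stood at 0 and 1.68 CPM. Zic1 and its neighbour Zic4 lie head to head on chromosome 9, and in the 2 fibroblast clusters 18 of the 21 vehicle cells with Zic4 and 19 of the 20 such 1NMPP1 cells also held Zic1. Cells that hold more UMIs show more genes of any kind, so this sharing is a description. The same rule found 16 and 21 barcodes in the growth plate libraries, vehicle and 1NMPP1, where Zic1, Zic4 and Slc47a1 had 0 UMIs in both libraries. Other meningeal genes were present there. Foxc1 stood at 83.9 and 62.3 CPM, with UMIs in 8 of 16 and 7 of 21 of those barcodes. Crabp2 stood at 254 and 10.7 CPM, against 81.8 and 133 CPM in DRG strict cells. Foxd1 had 4 and 0 UMIs. Apod had 11 and 0 UMIs and Dcn had 609 and 646 UMIs in those growth plate barcodes.

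The 250 bases before the annotated start (RefSeq, GRCm38.p6) are shown for the genes on which these patterns turn, the neighbouring pair Zic1 and Zic4, the forkhead gene Foxd1, the cluster gene Apod and the thyroid hormone deiodinase gene Dio2 described below. All 5 had an entry in the promoter table. Each runs 5′ to 3′ on the gene's own strand, and capitals mark a GC box (GGGCGG) or a TATA box (TATAAA) on either strand.
Zic1 (chr9:91365769-91366018, minus strand): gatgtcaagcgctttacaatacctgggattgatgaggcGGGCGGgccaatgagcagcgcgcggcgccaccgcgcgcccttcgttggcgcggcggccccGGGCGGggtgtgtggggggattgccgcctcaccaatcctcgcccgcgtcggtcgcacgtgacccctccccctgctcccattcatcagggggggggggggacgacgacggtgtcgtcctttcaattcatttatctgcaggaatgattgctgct
Zic4 (chr9:91368722-91368971, plus strand): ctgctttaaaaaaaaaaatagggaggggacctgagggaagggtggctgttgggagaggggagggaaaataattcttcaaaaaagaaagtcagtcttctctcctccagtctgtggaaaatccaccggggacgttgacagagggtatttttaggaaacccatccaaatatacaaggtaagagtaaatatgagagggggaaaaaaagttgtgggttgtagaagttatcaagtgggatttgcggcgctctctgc
Foxd1 (chr13:98353995-98354244, plus strand): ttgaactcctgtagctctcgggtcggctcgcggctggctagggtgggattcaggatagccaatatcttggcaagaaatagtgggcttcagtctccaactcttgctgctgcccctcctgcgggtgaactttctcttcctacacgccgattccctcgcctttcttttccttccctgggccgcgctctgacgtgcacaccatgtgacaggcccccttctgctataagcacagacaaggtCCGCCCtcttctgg
Apod (chr16:31314809-31315058, minus strand): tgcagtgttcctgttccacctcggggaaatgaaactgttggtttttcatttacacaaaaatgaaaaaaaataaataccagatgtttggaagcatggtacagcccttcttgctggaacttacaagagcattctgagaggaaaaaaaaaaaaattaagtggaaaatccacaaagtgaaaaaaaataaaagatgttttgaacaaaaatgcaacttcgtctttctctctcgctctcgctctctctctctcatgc
Dio2 (chr12:90739039-90739288, minus strand): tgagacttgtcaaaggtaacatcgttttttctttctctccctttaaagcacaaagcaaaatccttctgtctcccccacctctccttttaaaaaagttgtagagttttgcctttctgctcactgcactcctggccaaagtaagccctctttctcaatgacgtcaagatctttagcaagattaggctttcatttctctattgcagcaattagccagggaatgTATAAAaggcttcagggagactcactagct
The windows of Zic1 and Zic4 are 2703 bases apart on opposite strands. The Zic1 window holds 2 GC boxes, a GC content of 66% and 27 CG pairs, while that of Zic4 holds neither motif, at 44.4% GC with 4 CG pairs. Foxd1 has 1 GC box on the reverse strand, Dio2 has 1 TATA box near its start, and Apod has neither motif and 36.4% GC. Of 32851 windows of this length, 32.7% hold a GC box, 12.4% hold a TATA box and the median GC content is 52.4%. A match describes these letters and shows no binding.

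Several Hox genes, which record position along the body axis, were detected in the strict cells. Hoxc10, a gene of lumbar levels, had UMIs in 27 of 61 vehicle and 22 of 58 1NMPP1 strict cells, Hoxc9 in 19 and 19, and Hoxc8 in 24 and 20. Hoxd13, which marks the ends of limbs and the tail, had 0 UMIs in both libraries. In the 16 vehicle and 21 1NMPP1 growth plate barcodes found by the same rule, Hoxc10 had UMIs in 7 and 4. Hoxc9 had UMIs in 6 and 2 of them, and Hoxc8 in 2 and 1. Of 28 Hox genes on the list, 17 reached the 20 UMIs over both libraries that were required to read a ratio.

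Outside the 8 genes of the rule, 32 genes were at least 8 times higher in the chosen cells than in every other DRG class of at least 10 cells, in both libraries. Smoc2, a matrix protein that binds calcium, stood at 540 CPM (vehicle) and 1283 CPM (1NMPP1), against 32.9 and 102.7 CPM in the next class. Mmp2, a gelatinase, stood at 272 and 589 CPM against 14.6 and 34.6 CPM, and Mfap4, a microfibril protein, at 231 and 474 CPM against 19.1 and 27.0 CPM. Abi3bp stood at 282 and 399 CPM, Scara5, a ferritin receptor, at 186 and 257 CPM, and Gfpt2, an enzyme of hexosamine synthesis, at 196 and 174 CPM. Myoc, the secreted protein myocilin, stood at 280 and 179 CPM against 6.62 and 2.93 CPM. The next class was in most cases the erythroid class. At least 3 of its 6 markers were also detected in 46 of 116 vehicle and 25 of 73 1NMPP1 chosen cells. The other classes included no fibroblast class, so left-out barcodes with fibroblast markers could be counted in them, which was not tested. Htra3, Cpxm1 and Apod complete the 10 genes of this kind with the highest levels.

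Between the libraries, summed UMIs were compared as CPM of the same cells, and the log2 ratio of 1NMPP1 over vehicle was read for genes with at least 20 UMIs. In all chosen cells 10710 genes were read, of which 876 (8.18%) were at least 2-fold higher in 1NMPP1 and 1099 (10.3%) at least 2-fold lower. In strict cells 8071 genes were read, of which 521 (6.46%) were at least 2-fold higher and 386 (4.78%) at least 2-fold lower, and the median gene stood at 0.08. The 3 named genes with the lowest ratios over all chosen cells, Nefh, Nefm and Nefl, encode neurofilaments of neurons. For Nefh 99.05%, for Nefm 97.6% and for Nefl 97.3% of the vehicle UMIs lay in 1 cell, the cell of 154084 UMIs, and without it 708 genes were at least 2-fold lower and 908 at least 2-fold higher. Thy1, Nat8l and Vamp1 likewise had 97.8%, 92.3% and 91.1% of their vehicle UMIs in 1 cell.

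Igf2, a growth factor of fetal tissue and of the meninges that is in most tissues expressed from the paternal copy, had the highest ratio among the genes that passed the naming rule in either set of cells. It stood at 316 CPM (279 to 357) in vehicle strict cells and at 2278 CPM (2159 to 2400) in 1NMPP1 strict cells, a log2 ratio of 2.85 (2.66 to 3.05). The UMIs came from few cells. In vehicle 19 of 61 strict cells held Igf2, with a highest cell of 57 UMIs, and in 1NMPP1 24 of 58 held it, with highest cells of 344, 275 and 274 UMIs that made up 64.2% of the total. After thinning each cell to 2000 UMIs, 12 of 57 vehicle and 13 of 57 1NMPP1 strict cells held an Igf2 UMI, 21.1% and 22.8%, with intervals of 11.4% to 33.9% and 12.7% to 35.8%. No difference in the share of cells with the gene was detectable at this depth, while the highest cells stood higher in 1NMPP1. In endothelial barcodes 0.752% and 5.13% of thinned cells held a UMI of Igf2, at median depths of 17974 and 9059 UMIs before thinning.

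H19, the noncoding RNA that lies beside Igf2 and is expressed from the maternal copy, stood at 435 CPM (391 to 483) and 1688 CPM (1586 to 1794), a log2 ratio of 1.95 (1.78 to 2.13). It was detected in 19 of 61 and 23 of 58 strict cells. In the 2 fibroblast clusters, 15 of the 20 vehicle cells with Igf2 and 19 of the 26 such 1NMPP1 cells also held H19. Without the cell with the most UMIs in each library the strict log2 ratios were 2.80 for Igf2 and 1.99 for H19. In the barcodes with at least 6 markers that the rule had left out they were 2.16 and 1.39, both above 1.

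Dio2, the deiodinase that makes active thyroid hormone, stood at 49.6 CPM (35.4 to 67.5) and 246 CPM (208 to 288) in strict cells, a log2 ratio of 2.30 (1.80 to 2.85), and had 0 UMIs in the Apod and Dcn cluster of both libraries. Slc47a1 stood at 107 and 342 CPM with a log2 ratio of 1.68 (1.31 to 2.06), and its thinned share of cells was 10.5% (3.96% to 21.5%) and 33.3% (21.4% to 47.1%). Within the Igfbp5 and Mgp cluster the log2 ratios were 2.55 for Igf2, 1.67 for H19, 2.04 for Dio2 and 1.34 for Slc47a1, each of them above 1.

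Eln, the gene of elastin, stood at 228 and 1235 CPM in strict cells, a log2 ratio of 2.43 (2.20 to 2.68). In 1NMPP1 2 cells with 382 and 185 UMIs held most of its 754 UMIs, and without the highest cell of each library the log2 ratio was 1.71. Pi16 stood at 166 and 474 CPM with a log2 ratio of 1.51 in strict cells, and at -0.81 in the left-out barcodes, where vehicle held more. Thbs2, a matricellular thrombospondin, stood at 157 and 465 CPM with a log2 ratio of 1.56 (1.26 to 1.88), with UMIs in 32 of 61 and 31 of 58 cells. Ghr, the growth hormone receptor, stood at 216 and 841 CPM, but 67.1% of its 1NMPP1 UMIs lay in 3 cells and its median over strict cells was 1.67 UMIs per 10,000 in vehicle and 1.18 in 1NMPP1.

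Other genes named by the rule and higher in 1NMPP1 over all chosen cells were the channel genes Kcnk5 and Kcnj2, the bicarbonate transporter gene Slc4a10 and Nt5e, the ectonucleotidase CD73. In strict cells their log2 ratios were 1.86, 1.48, 1.49 and 1.55. In strict cells the rule also named Ccn2, a target of YAP signalling, at 52.1 and 239 CPM, with Txnip, Irf2bpl, Pygb and the leptin receptor gene Lepr. Ccn2 stood at -0.64 in the left-out barcodes and Lepr at -0.24, both on the other side of 0. The naming rules of both cell sets shared 7 of their 12 higher genes and 1 of their 12 lower genes, Col11a2.

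Among genes lower in 1NMPP1 strict cells, Tnfrsf12a, the receptor of the injury cytokine TWEAK, stood at 193 CPM (164 to 226) in vehicle and 47.5 CPM (31.8 to 68.2) in 1NMPP1, a log2 ratio of -2.01 (-2.65 to -1.45). It was detected in 35 of 61 and 15 of 58 cells, and after thinning in 26.3% (15.5% to 39.7%) and 8.77% (2.91% to 19.3%). Endothelial barcodes also held less of it in 1NMPP1, with thinned shares of 30.8% and 12.8%. Tmtc2, an enzyme gene of protein mannosylation, stood at 391 and 83.6 CPM with a log2 ratio of -2.21 (-2.68 to -1.79). In the left-out barcodes Tmtc2 stood at -0.80. Satellite glia barcodes held more of it than strict cells, at 535 CPM (vehicle) and 619 CPM (1NMPP1), and the part of glial cells was not tested. Srgap1, a partner of Robo receptors, stood at -1.56, and Tnfrsf12a and Srgap1 were also lower in the left-out barcodes, at -1.21 and -1.38. Spp1, osteopontin, stood at -1.89, with 52.9% of its vehicle UMIs in 1 cell, and Col11a2 at -4.02 with 55.2% in 1 cell. In the left-out barcodes Spp1 stood at -0.10 and Col11a2, with 5 and 3 UMIs, at -0.30. In the 2 fibroblast clusters Col11a2 had 5 UMIs in vehicle and 4 in 1NMPP1, so most of its vehicle UMIs lay outside them.

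**Figure D3:**
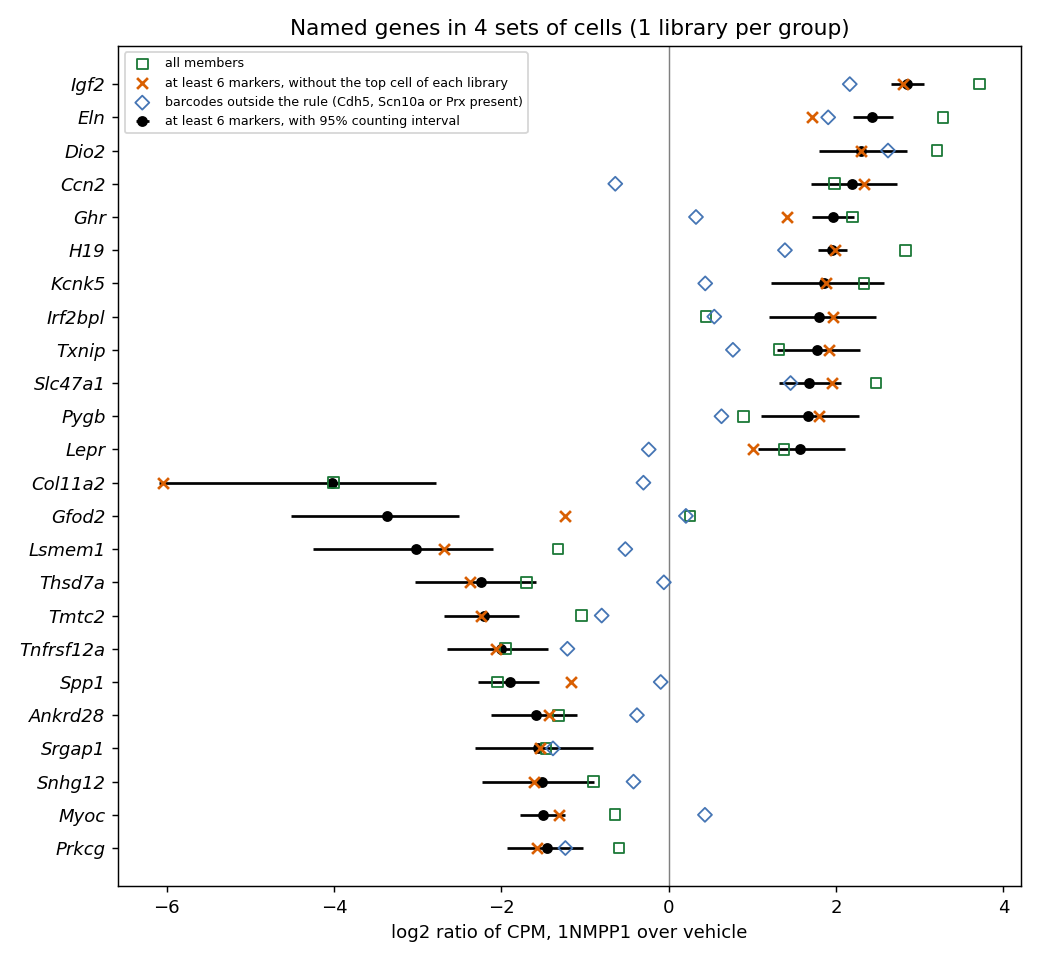
The 24 genes named in strict cells, with log2 of the CPM ratio of 1NMPP1 over vehicle on the x axis: black points with 95% counting intervals are strict cells, green squares all chosen cells, orange crosses strict cells without the highest cell of each library, and blue diamonds the barcodes that the rule left out. Igf2, Dio2, H19 and Slc47a1 lie above 1 in each of the 4 sets, while Ccn2, Lepr, Gfod2 and Myoc lie on different sides of 0 in different sets.

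**Figure D4:**
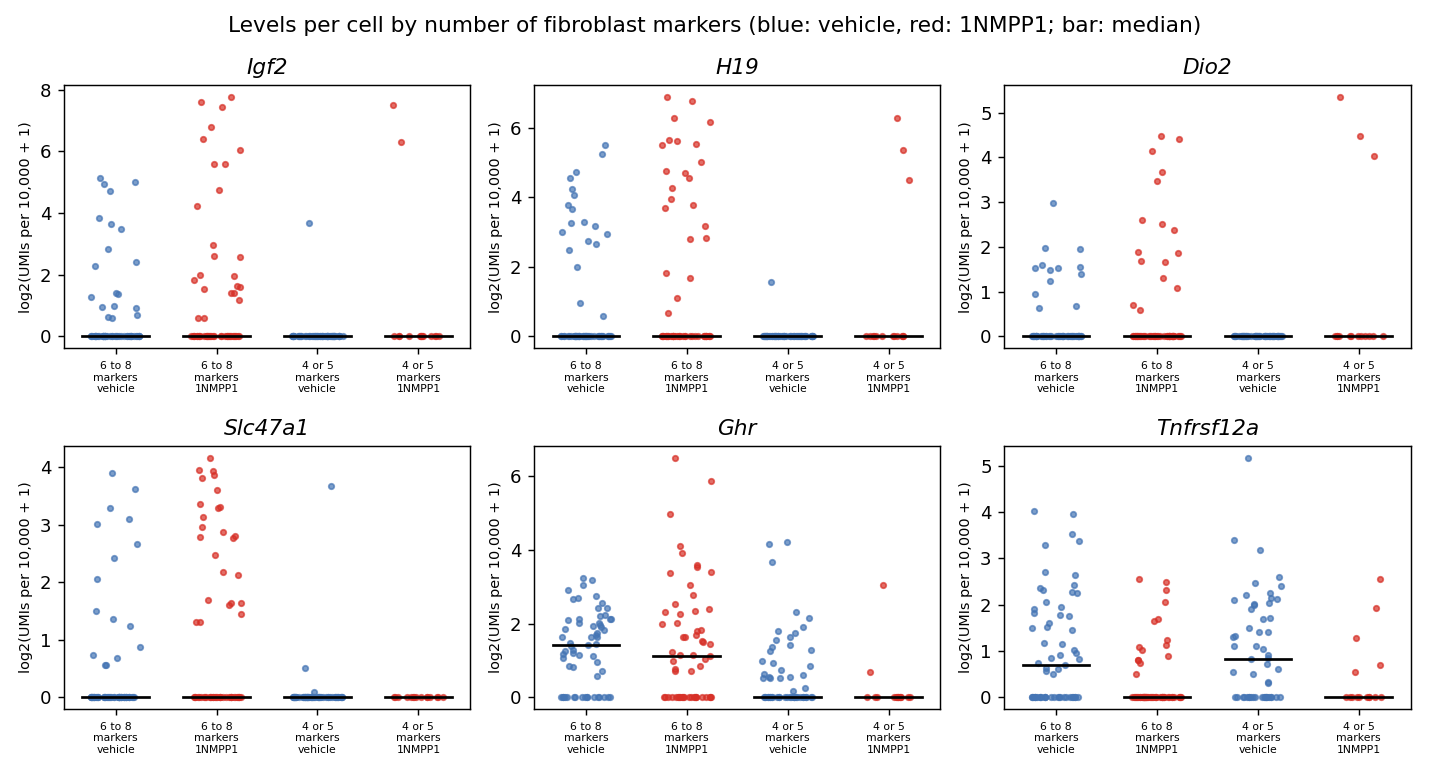
Each point is a chosen cell, vehicle in blue and 1NMPP1 in red, split by the number of fibroblast markers, with log2 of UMIs per 10,000 UMIs plus 1 on the y axis and the median as a bar. For Igf2, H19, Dio2 and Slc47a1 the median is 0 and a minority of cells carries the UMIs. The highest cells are in 1NMPP1, except for Slc47a1 at fewer than 6 markers, where only vehicle cells hold UMIs.

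Of the 37 gene lists read as the median log2 ratio of their genes, 28 lay above 0 in all chosen cells and 23 in strict cells, with all genes read at a median of 0.01 and 0.08. The members of these lists were chosen with results of these data known, so the medians are a description. The 15 fibrillar and associated collagen genes had a median of 0.93 over all chosen cells and of 0.26 in strict cells, where 14 of 15 were above 0, beside 56.3% of all genes read, and 1, Col12a1, was past 2-fold, a share near the 6.46% of all genes. Col1a1 stood at 8856 CPM in vehicle strict cells and 8732 CPM in 1NMPP1 strict cells, a log2 ratio of -0.02 (-0.07 to 0.03), and Col3a1 at 7802 and 9086 CPM. Col12a1, which links collagen fibrils, stood at 430 and 882 CPM, a log2 ratio of 1.03 (0.84 to 1.23). The 11 small proteoglycan genes had medians of 1.16 over all chosen cells and 0.35 in strict cells, and Dcn and Lum, 2 genes of the rule, stood at -0.28 and -0.52 there. The 18 elastic fibre and microfibril genes had medians of 1.04 and 0.35, with 15 of 18 above 0 in strict cells and 1, Eln, past 2-fold, again near the share of all genes. Each of these 3 matrix medians was larger over all chosen cells, of which 47 of 116 in vehicle and 10 of 73 in 1NMPP1 held at least 4 satellite glia markers. The part of the glial cells in these medians was not tested.

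Lists that describe where fibroblasts lie were read in the same way. The 13 meningeal genes read had a median of 0.69, with 11 of 13 above 0, beside 56.3% of all genes, and 3, Slc47a1, Zic1 and Cldn11, past 2-fold higher, beside 6.46%. Aldh1a2, which makes retinoic acid, was past 2-fold lower at -1.06, with 85.3% of its vehicle UMIs in 1 cell. Zic1 had a log2 ratio of 1.05 (0.72 to 1.38), Foxd1 0.99 (0.65 to 1.33), Foxc1 0.69 (0.25 to 1.14) and Zic4 0.80 (0.13 to 1.49). In the left-out barcodes the meningeal median was 0.64 over 14 genes. Within the Igfbp5 and Mgp cluster it was 0.46 over 9 genes, with 6 above 0, beside 3090 of 5783 genes read there. Within the Apod and Dcn cluster, the cell of 154084 UMIs included, it was 0.60 over 8, all above 0, beside 3272 of 6681. The Igfbp5 and Mgp cluster held 25 of 61 vehicle and 31 of 58 1NMPP1 strict cells, and the part of this mix was not tested. The 17 Hox genes had a median of 0.81, with 14 of 17 above 0, beside 56.3% of all genes. Past 2-fold higher were 6 of them, beside 6.46%, among them Hoxa5 at 1.61 and Hoxb6 at 1.66. The Hox median was 0.52 in the left-out barcodes, but -0.83 over the 4 genes read in the Apod and Dcn cluster alone. The 16 adventitial and epineurial genes had a median of 0.58 in strict cells and -0.01 in the left-out barcodes. Endoneurial genes had a median of -0.27 over 6 genes and perineurial genes of 0.15 over 7. In the left-out barcodes the endoneurial median was -0.14 over 7 genes and the perineurial median 1.12 over 12. Of these 12 perineurial genes 11 were above 0, beside 57.3% of all genes read there. Past 2-fold higher were 6 of the 12, beside 642 of all 8749 genes. Cdh5 was present in 40 of the 54 vehicle and 46 of the 56 1NMPP1 left-out barcodes.

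Of 10 genes of the IGF axis, 8 were above 0 in strict cells, beside 56.3% of all genes, with a median of 0.49. The median was 0.13 in the left-out barcodes, with 7 of 11 above 0, beside 57.3% of all genes there. In the Igfbp5 and Mgp cluster it was 0.19. Igf1 stood at 294 CPM (258 to 334) in vehicle and 646 CPM (583 to 713) in 1NMPP1, a log2 ratio of 1.13 (0.90 to 1.37), and the thinned share of cells with it was 22.8% (12.7% to 35.8%) and 52.6% (39.0% to 66.0%). The receptor gene Igf1r stood at 145 and 144 CPM, and Igf2r, which clears IGF2, at 70.7 and 98.3 CPM. Among the binding proteins Igfbp5 stood at 0.63 and Igfbp7 at -0.16. Wnt genes had a median of 0.63 over 13 genes, with Dkk3 at 1.13 and Dkk2 at 1.01, and genes of retinoic acid handling 0.52 over 9, with Cyp26b1, which degrades retinoic acid, at 1.91 (1.24 to 2.66).

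Genes for cues that act on axons were on both sides of 0. Of 14 neurotrophic factor and guidance genes read in strict cells 6 were above 0, beside 56.3% of all genes read, with a median of -0.15. Ntn1, netrin 1, stood at 164 and 331 CPM, a log2 ratio of 1.01 (0.69 to 1.34), and Slit2 at 239 and 444 CPM, 0.89 (0.62 to 1.17), while Slit3 stood at -0.90. Ptn, pleiotrophin, stood at 223 and 57.4 CPM, a log2 ratio of -1.94, with 60.6% of its vehicle UMIs in 1 cell. Cxcl12, a chemokine of stroma, stood at -1.42 with 45.8% in 1 cell. Among receptors of nerve signals Npy1r, a neuropeptide Y receptor, stood at 14.9 and 77.0 CPM, a log2 ratio of 2.33 (1.44 to 3.42), with UMIs in 6 of 61 and 13 of 58 cells.

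The 14 chemokine and cytokine genes had a median of -0.02, with Ccl2 at 0.28, Ccl11 at 0.24, Il6 at 0.55, Cxcl1 at -0.78 and Cxcl10 at -0.72. Interferon response genes had a median of -0.96 over 19 genes in all chosen cells and of -0.15 over 14 in strict cells, where 4, Ifit1, Ifit3, Ifih1 and Iigp1, were past 2-fold lower, beside the 4.78% of all genes. Immediate early genes had a median of 0.30 over 22 genes, with Fos at 3544 and 3275 CPM and Zfp36, which degrades cytokine transcripts, at 0.92 (0.76 to 1.08). Heat shock genes had a median of -0.35 over 11 and cholesterol synthesis genes of -0.52 over 12, the latter at 0.76 in the left-out barcodes. Cell cycle genes had a median of -4.25 over 15 genes in all chosen cells, and in strict cells 3 of them were read, with a median of 0.21.

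**Figure D5:**
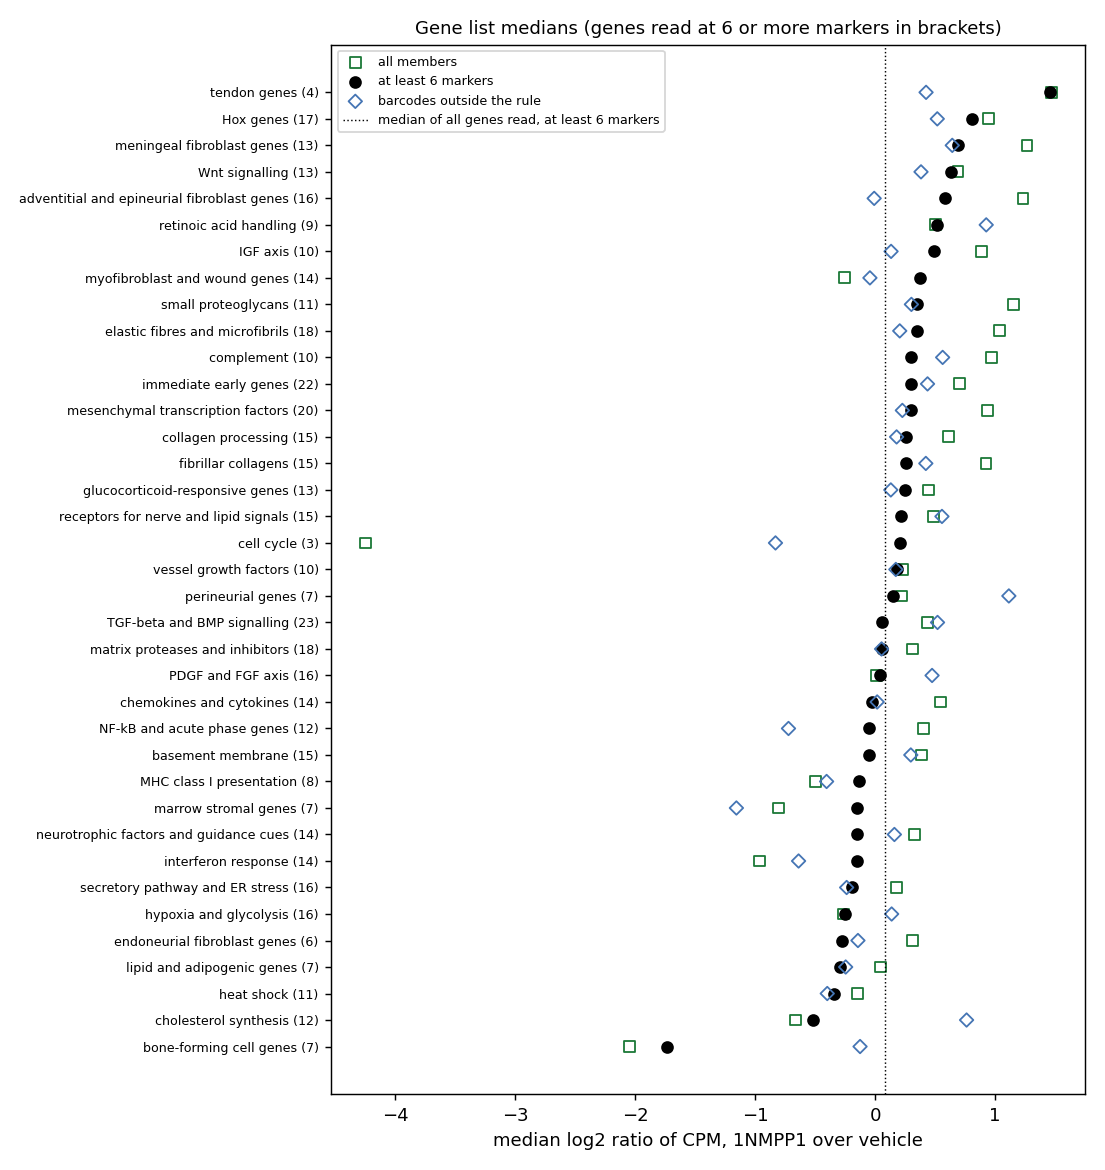
Each row is a gene list, with the median log2 CPM ratio of 1NMPP1 over vehicle on the x axis for all chosen cells (green squares), strict cells (black points) and the barcodes that the rule left out (blue diamonds), and the dotted line at the median of all genes in strict cells, 0.08. Meningeal and Hox genes lie above that line in all 3 sets, as do many other lists, among them the tendon, Wnt and fibrillar collagen genes. Matrix lists lie farther right in all chosen cells than in strict cells.

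The libraries also differed in the sex of their cells, called from Xist and Y-linked genes. Of the chosen cells 63 were called male and 31 female in vehicle, and 20 and 46 in 1NMPP1, while the cluster led by Apod and Dcn held 24 male-called cells in vehicle and 2 in 1NMPP1. Within male-called strict cells, 36 and 16, the log2 ratios were 4.25 for Igf2, 2.74 for H19, 1.94 for Dio2, 2.45 for Slc47a1 and -2.31 for Tnfrsf12a. Within female-called strict cells, 15 and 39, they were 1.94, 1.89, 4.22, 4.14 and -2.22. Ccl11 stood at -3.79 in male-called and 0.92 in female-called strict cells, and Myoc at -1.92 and 0.78. The male-called ratios, also those of Igf2, H19, Dio2 and Slc47a1, compare different mixes of clusters. Of male-called chosen cells, 24 in vehicle and 2 in 1NMPP1 lay in the Apod and Dcn cluster, where Ccl11 is highest. In the Igfbp5 and Mgp cluster, which held most cells with Igf2, lay 15 and 14. Female-called cells were 9 and 26 in the first of these clusters and 6 and 16 in the second. A difference between the sexes was not tested. The labels do not give the sex or number of the animals.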

How the data were processed

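Single cells of 4 mouse libraries were measured, and the 2 DRG libraries were used here, with the growth plate pair for comparison. The deposited values are unnormalized UMI counts. Per the file headers, the authors ran Cell Ranger 7.2.0, and the submitters' processing notes name mm10 as the build. Barcodes were kept by the rule in the report, and 2938 vehicle and 2201 1NMPP1 barcodes passed the gene and mitochondrial limits. Chosen cells had a median of 15290 UMIs in vehicle and 9813 in 1NMPP1, strict cells of 14256 and 9789. Other classes were set by detection of at least 50% of their markers.

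Counts were summed per library, and CPM ratios had 0.5 UMI added to each sum, with exact conditional 95% intervals. Shares have exact Clopper-Pearson intervals and CPM exact Poisson intervals. The log2 step was tested on simulated data. Chosen cells were clustered with scanpy 1.11.5 (1500 variable genes, 20 components, 12 neighbours, Leiden at resolution 0.5). No doublets were removed, and Scrublet's top scores at 0.8% per 1000 barcodes were removed as an alternative, which took 12 vehicle and 5 1NMPP1 cells.

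Named genes are the 12 highest and 12 lowest ratios among genes with at least 100 UMIs, a UMI in at least 10% of the cells of the higher library, an interval without 0 and a mean CPM reaching 25% of the level in the other class where it is highest. Genes of ribosomes, mitochondria, immunoglobulins and hemoglobins, predicted genes and sex-linked genes were not named. The 10 highest genes at 8 times the next class were also named, and members of lists were named as examples after their values were seen. The cells and lists were chosen with earlier results of these data known. A few genes are not reported here.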

Additional observations from a re-analysis of the deposited data

Results flagged for a closer look

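Both DRG tables count tdTomato, a red fluorescent reporter that no comparison above used. In the chosen cells it had 199 UMIs in vehicle, of which 165 lay in 1 cell, and 69 UMIs in 1NMPP1, of which 38 lay in 1 cell. It was detected in 11 of 116 and 7 of 73 chosen cells. These values are listed because a count above 0 appears in data outside the main measurement.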

How the results depend on the processing

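No paired analysis was possible because each group has 1 library. The log2 ratio of shares, -0.25 as reported, was 0.34 for strict cells and 0.79 without cells with 3 markers of another type. It was 0.28 without the other barcodes of blood classes, a filter that removed no chosen cell. The 876 genes higher in 1NMPP1 became 521 in strict cells, 409 without cells with 3 markers of another type, 277 after thinning and 270 at 100 UMIs per gene. The 1099 lower genes became 386, 288, 305 and 348 under these settings, 693 in female-called cells and 598 with 5 UMI added. Of the settings chosen after seeing the data, the 2 fibroblast clusters gave 558 higher genes, the Igfbp5 and Mgp cluster 403 higher and 326 lower, and the left-out barcodes 533 lower. Without the vehicle cell with the most UMIs 708 genes were lower, and the Apod and Dcn cluster without it gave 380 higher and 322 lower. Of the 37 list medians 16 were above 0 in the Igfbp5 and Mgp cluster, against 28.

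Of 37 list medians, 9 lay on the other side of 0 in strict cells, 12 without cells with 3 markers of another type, 10 in male-called cells, 12 in the Igfbp5 and Mgp cluster, and 7 each in the Apod and Dcn cluster, both fibroblast clusters together and the left-out barcodes. In the Apod and Dcn cluster without the vehicle cell with the most UMIs, 12 lay on the other side. Changed medians that were at least 0.5 from 0 as reported are given here. Without cells with 3 markers of another type, collagen processing was -0.14, adventitial genes -0.13, chemokines -0.55, interferon response 0.043 and cholesterol synthesis 0.26. In strict cells chemokines were -0.024 and cell cycle genes 0.21, the latter 0.046 without top Scrublet scores. In male-called cells chemokines were -0.92 and retinoic acid genes -0.028. In the Igfbp5 and Mgp cluster chemokines were -1.25, complement -0.020 and immediate early genes -0.0027. In the Apod and Dcn cluster marrow stromal genes were 0.41, tendon -0.26, cell cycle 0.33 and Hox -0.83 (4 genes). Without the vehicle cell with the most UMIs that cluster gave collagen processing -0.21, marrow stromal genes 0.14, tendon -0.69 (1 gene), cholesterol synthesis 0.42 and Hox -0.62 (3 genes). Interferon response was 0.16 in the 2 fibroblast clusters. In the left-out barcodes adventitial genes were -0.0071, cholesterol synthesis 0.76 and Pi16 -0.81. Without that cell Thy1 was 0.22 and Vamp1 0.011 over all chosen cells. Thy1 was 1.12 in female-called cells, 0.88 in the Igfbp5 and Mgp cluster and 0.011 without its top cell. The causes were not tested.

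With 1 library per group, no value has a replicate check, and differences between animals, digests and treatment cannot be told apart. The 1NMPP1 cells were shallower, which limits the detection of low genes.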
